A study of Mus musculus with 6 samples.

Results

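Acute phase proteins are secreted proteins whose production changes in inflammation. The liver is their main source, but adipose tissue also makes several of them. Their genes are classically switched on by interleukin-6 through Stat3 and C/EBP factors, and by interleukin-1 and tumor necrosis factor through NF-kappaB, with glucocorticoids acting beside them. The 10 genes described here are Saa1, Saa2 and Saa3 (serum amyloid A proteins, carried on lipoproteins), Lcn2 (lipocalin 2, which binds iron-carrying siderophores), Serpina3n (an inhibitor of serine proteases), Hp (haptoglobin, which binds free hemoglobin), Orm1 and Orm2 (orosomucoids, plasma carriers of small molecules), Lbp (lipopolysaccharide-binding protein) and Cp (ceruloplasmin, a copper-containing ferroxidase). They were taken by name from the 54532 genes of the count table, and 8 of them had enough counts to be tested among 16003 genes.

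The samples were epididymal white adipose tissue (eWAT) of 6 male C57BL/6 mice, 3 controls and 3 made cachectic with LLC cells, the Lewis lung carcinoma line of mouse lung cancer, injected under the skin. No engineered allele or other treatment is given for either group. The tumor-bearing mice were called cachectic by their loss of body weight, and both groups were killed on the same day after inoculation. Each library was total RNA of the fat of 1 mouse, so fewer cells of a type and less RNA per cell cannot be told apart. Control replicates 1 to 3 gave 18766846, 18475204 and 18855546 counts in total, and cachexia replicates 1 to 3 gave 17278966, 15711022 and 14928766. Values of 3 mice are always listed in that order. Expression is given as CPM, counts scaled to a common library size with edgeR's TMM factors, and the members are ranked by level as FPKM, which also divides by gene length. Markers of a cell type are summed as CPM, and the leading gene named for a list is the one with the highest mean CPM, which is not corrected for length.

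All 12 adipocyte markers examined passed the filter, with a summed level between 32189 and 60024 CPM in every mouse, and Car3 led the list. Control replicate 1 stood apart from the other libraries. On the next principal component of log2 CPM after the one that split the groups (16.3% of the variance), it lay at 47.2 and the other controls at -28.8 and -23.3. It held 247 CPM of 16 epithelial markers, against 13.3 to 36.3 CPM in the other 5 mice. Its Epcam level was 46.9 CPM, and no other mouse was above 0.721 CPM. Pax2, a transcription factor of kidney and genital duct epithelium, was at 4.01 CPM there and at 0 in the other 5 mice. In Hp and Serpina3n, cachexia replicate 1 was the only cachectic mouse below every control mouse, as described for each gene. Values of the tested members that rest on control replicate 1 or cachexia replicate 1, and counts of the other lists that turn on either, are given with and without that mouse.

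With all 6 mice, none of the 8 tested genes was called higher in cachexia (edgeR's quasi-likelihood test, threshold 0.05 after Benjamini-Hochberg adjustment), where 9.0% of all tested genes were. DESeq2 and limma-voom also called 0 of the 8 higher. Orm2 and Lbp were lower, 2 of 8, where 8.63% of all tested genes were. The same shares, 9.0% higher and 8.63% lower, are the ones to set beside the counts of the other lists. At an unadjusted p under 0.05 (edgeR), 1 of the 8 was higher, Saa3, and 3 were lower, Orm1, Orm2 and Lbp, where 17.4% of all tested genes were higher and 17.0% lower. The values of the groups did not overlap in 4 of the 8 genes, all lower in cachexia (Orm1, Orm2, Lbp and Cp), against 20.1% of all tested genes lower without overlap and 40.5% in either direction. No gene of the 8 lay wholly above the controls, against 20.4% of all tested genes. The median log2 fold change of the 8 genes was -0.02, beside -0.00306 over all tested genes. Behind that median lay genes with opposite fold changes and cachectic mice that differed widely from each other.

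**Figure D1:**
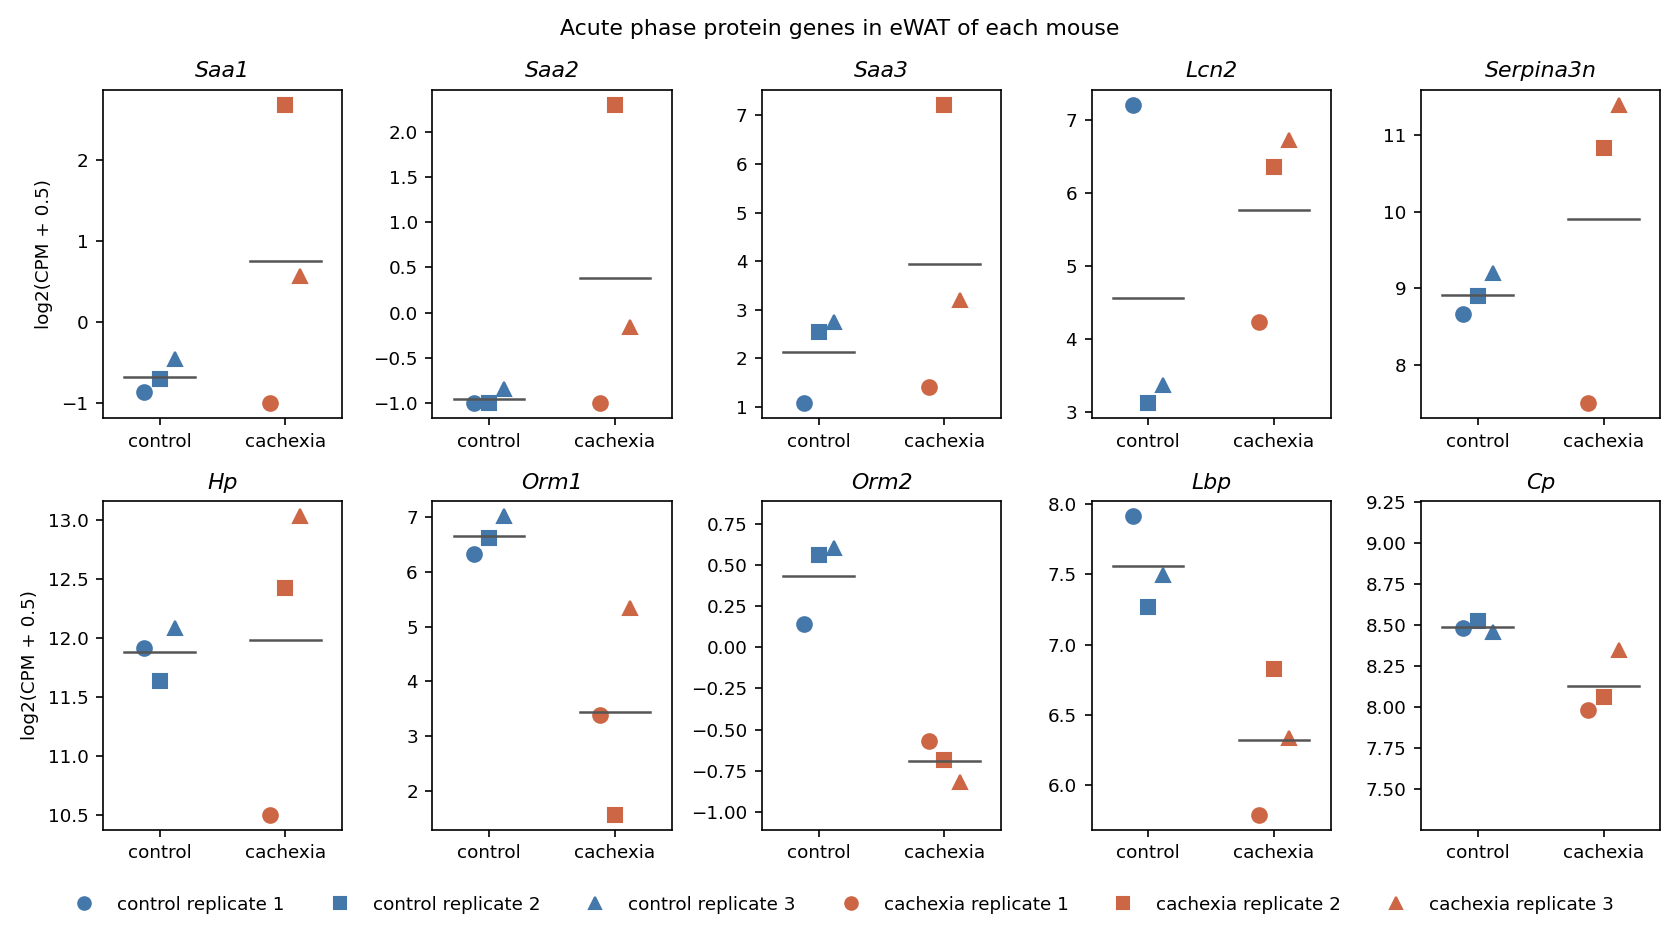
Expression of the 10 acute phase protein genes in eWAT of each mouse, as log2(CPM + 0.5) on axes of their own, with a point for each of the 3 control and 3 cachectic mice and a line at the mean of a group. In Lcn2 control replicate 1 lies above every other mouse, in Serpina3n and Hp cachexia replicate 1 lies below every other mouse, and in Orm1, Orm2, Lbp and Cp the groups do not overlap.

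Because these genes share known activators, the sequence before the start of transcription is shown for Saa3 and Serpina3n, which varied most between cachectic mice, for Lcn2, which varied most between control mice, and for the near-copies Saa1 and Saa2. Each run is the 250 bases before the start, 5′ to 3′ on the strand of the gene (RefSeq, GRCm38.p6). Capitals mark matches to the letters searched on both strands, TTNNGNAA for C/EBP, GGGANNNNCC for NF-kappaB, TTCNNNGAA for STAT and GNACANNNTGTNC for the glucocorticoid response element (GRE). The windows are chr7:46742981-46743230 (- strand), chr7:46751583-46751832 (+ strand), chr7:46715677-46715926 (- strand), chr2:32387740-32387989 (- strand) and chr12:104406458-104406707 (+ strand).
Saa1: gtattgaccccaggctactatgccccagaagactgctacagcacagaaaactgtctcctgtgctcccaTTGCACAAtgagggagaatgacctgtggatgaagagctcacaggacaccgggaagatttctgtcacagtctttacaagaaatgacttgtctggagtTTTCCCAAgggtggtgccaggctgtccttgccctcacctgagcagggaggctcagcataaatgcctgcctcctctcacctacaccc
Saa2: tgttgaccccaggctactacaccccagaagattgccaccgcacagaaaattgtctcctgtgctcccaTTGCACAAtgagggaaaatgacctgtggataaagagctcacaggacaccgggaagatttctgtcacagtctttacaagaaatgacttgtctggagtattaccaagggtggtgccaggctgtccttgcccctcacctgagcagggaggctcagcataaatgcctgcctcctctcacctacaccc
Saa3: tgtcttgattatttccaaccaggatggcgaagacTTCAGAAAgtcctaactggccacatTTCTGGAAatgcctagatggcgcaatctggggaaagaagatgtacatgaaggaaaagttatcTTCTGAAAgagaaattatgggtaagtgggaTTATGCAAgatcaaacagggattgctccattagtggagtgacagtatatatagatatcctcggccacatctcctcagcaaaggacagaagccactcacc
Lcn2: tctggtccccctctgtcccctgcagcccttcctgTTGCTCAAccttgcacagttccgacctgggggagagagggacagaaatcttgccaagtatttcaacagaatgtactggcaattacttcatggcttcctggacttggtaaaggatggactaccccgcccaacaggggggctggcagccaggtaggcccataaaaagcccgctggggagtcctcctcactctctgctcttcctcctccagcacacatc
Serpina3n: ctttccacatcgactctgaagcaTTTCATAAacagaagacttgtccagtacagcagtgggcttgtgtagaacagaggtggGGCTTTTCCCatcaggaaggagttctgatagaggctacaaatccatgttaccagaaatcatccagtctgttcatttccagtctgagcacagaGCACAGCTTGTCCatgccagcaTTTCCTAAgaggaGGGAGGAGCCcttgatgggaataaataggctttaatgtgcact

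The table of promoters covered 7 of the 10 genes, without Hp, Orm1 and Lbp. Of all 32851 windows of 300 bases in it, 40.7% held a C/EBP match, 20.7% an NF-kappaB match, 8.30% a STAT match and 0.475% a GRE match. Saa3 held 4 C/EBP matches, Saa1 2 and Saa2 1, and the Saa1 and Saa2 windows of 300 bases were identical at 287 of 299 aligned bases (96.0%). Serpina3n held matches to C/EBP (2), NF-kappaB (2) and GRE (1, at bases -78 to -66), and none of the matches overlapped. Lcn2 held 1 C/EBP match, at bases -216 to -209. A match describes these letters only, and binding was not measured.

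Saa3, the serum amyloid A gene best known from adipose tissue and macrophages, had by far the highest values in a single cachectic mouse. It lies on chromosome 7 from 46711998 to 46715700 (GRCm38). The counts were 32, 93 and 109 in the control mice and 37, 2426 and 133 in the cachectic mice, or 1.61, 5.33 and 6.18 against 2.16, 149 and 8.72 CPM. Cachexia replicate 2 was above every other mouse, cachexia replicate 3 was just above the controls, and cachexia replicate 1 lay among them, so the groups overlapped. The mean was 4.37 ± 2.43 (SD, n = 3) CPM in control and 53.3 ± 82.9 (SD, n = 3) CPM in cachectic mice, giving a log2 fold change of 3.61 (SE 1.38, adjusted p = 0.109, edgeR, Benjamini-Hochberg). Without cachexia replicate 2 the log2 fold change was 0.32. The highest cachectic mouse had 69.0 times the CPM of the lowest, and only 0.0312% of all tested genes had a larger SD of log2 CPM among the cachectic mice than the 2.98 of Saa3.

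Saa1 and Saa2, the classical serum amyloid A genes of the liver, had few or no counts in eWAT outside cachexia replicate 2. With all mice they did not pass the filter for testing. When cachexia replicate 1 was left out, the members called higher were 2, Serpina3n and either Saa1 or Saa2 (edgeR, adjusted p under 0.05). Saa1 (chromosome 7, 46740497 to 46742980) had 1, 2 and 4 counts in control mice and 0, 96 and 15 in cachectic mice. Saa2 (46751790 to 46754313 on the same chromosome) had 0, 0 and 1 counts in control mice and 0, 72 and 6 in cachectic mice. In both genes the high mouse was cachexia replicate 2, as in Saa3, and cachexia replicate 1 had no read, so the groups overlapped. Cachexia replicate 2 reached 5.90 CPM of Saa1 and 4.42 CPM of Saa2. A count of 0 in cachexia replicate 1 allows up to 0.175 CPM (3 counts, counting error only). Although the promoters of Saa1 and Saa2 were similar, no stretch of 100 bases of the Saa1, Saa2 or Saa3 transcript occurred in the transcripts of another gene.

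Lcn2 (chromosome 2, 32384633 to 32388252) is made by neutrophils, epithelia and adipocytes, among other cells, and the study centers on its protein. The control mice held 148, 8.20 and 9.80 CPM and the cachectic mice 18.3, 81.6 and 105 CPM. Control replicate 1, the library with the epithelial markers, held the highest level of the 6 mice, and every cachectic mouse was above the other controls. Group means were 55.3 ± 80.1 (SD, n = 3) and 68.3 ± 44.9 (SD, n = 3) CPM, and the log2 fold change was 0.30 (SE 1.08, adjusted p = 0.871, edgeR, Benjamini-Hochberg). Only 0.119% of all tested genes had a larger SD of log2 CPM among the control mice. Without control replicate 1 the log2 fold change was 2.92 (SE 0.70, adjusted p = 0.0385, edgeR, Benjamini-Hochberg). With cachexia replicate 1 also left out it was 3.37 (SE 0.21, adjusted p = 0.00941, edgeR, Benjamini-Hochberg). That fit was added after the data were seen and held 2 mice per group. It left out the highest control and the lowest cachectic mouse of Lcn2, so the larger fold change follows from that choice and is no further support. Without control replicate 2, control replicate 3 or cachexia replicate 3 the log2 fold change was -0.21, -0.19 and -0.15, so its sign with all mice rests on single libraries.

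The cell types that could bring Lcn2 also differed between the mice. Neutrophil markers summed to 67.7, 94.5 and 86.4 CPM in control and 320.3, 314 and 894 CPM in cachectic mice, and 14 of 17 tested markers were higher in cachexia (edgeR, adjusted p under 0.05), or 9 and 8 without control replicates 1 and 3. The leading gene was S100a9, which encodes a calcium-binding protein of myeloid cells, at 0.351, 2.52 and 1.93 CPM in control and 102, 79.1 and 339.8 CPM in cachectic mice. The granule genes Ngp and Ltf, chosen after their values were seen, were at 106 and 64.3 CPM in cachexia replicate 3, and at most 8.11 and 5.83 CPM in the other mice. Ly6g, a defining surface marker of neutrophils, was at 0 in all control mice and between 0.393 and 0.614 CPM in cachectic mice. Among the epithelial markers 3 of 16 passed the filter and 0 were called by edgeR, DESeq2 or limma-voom (0 at an unadjusted p under 0.05, and 1 higher by edgeR without control replicate 1), and Krt8 led the list. Cachexia replicates 1 and 2 had almost equal neutrophil sums but 18.3 and 81.6 CPM of Lcn2. The part of either cell type in the Lcn2 values was not tested.

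**Figure D2:**
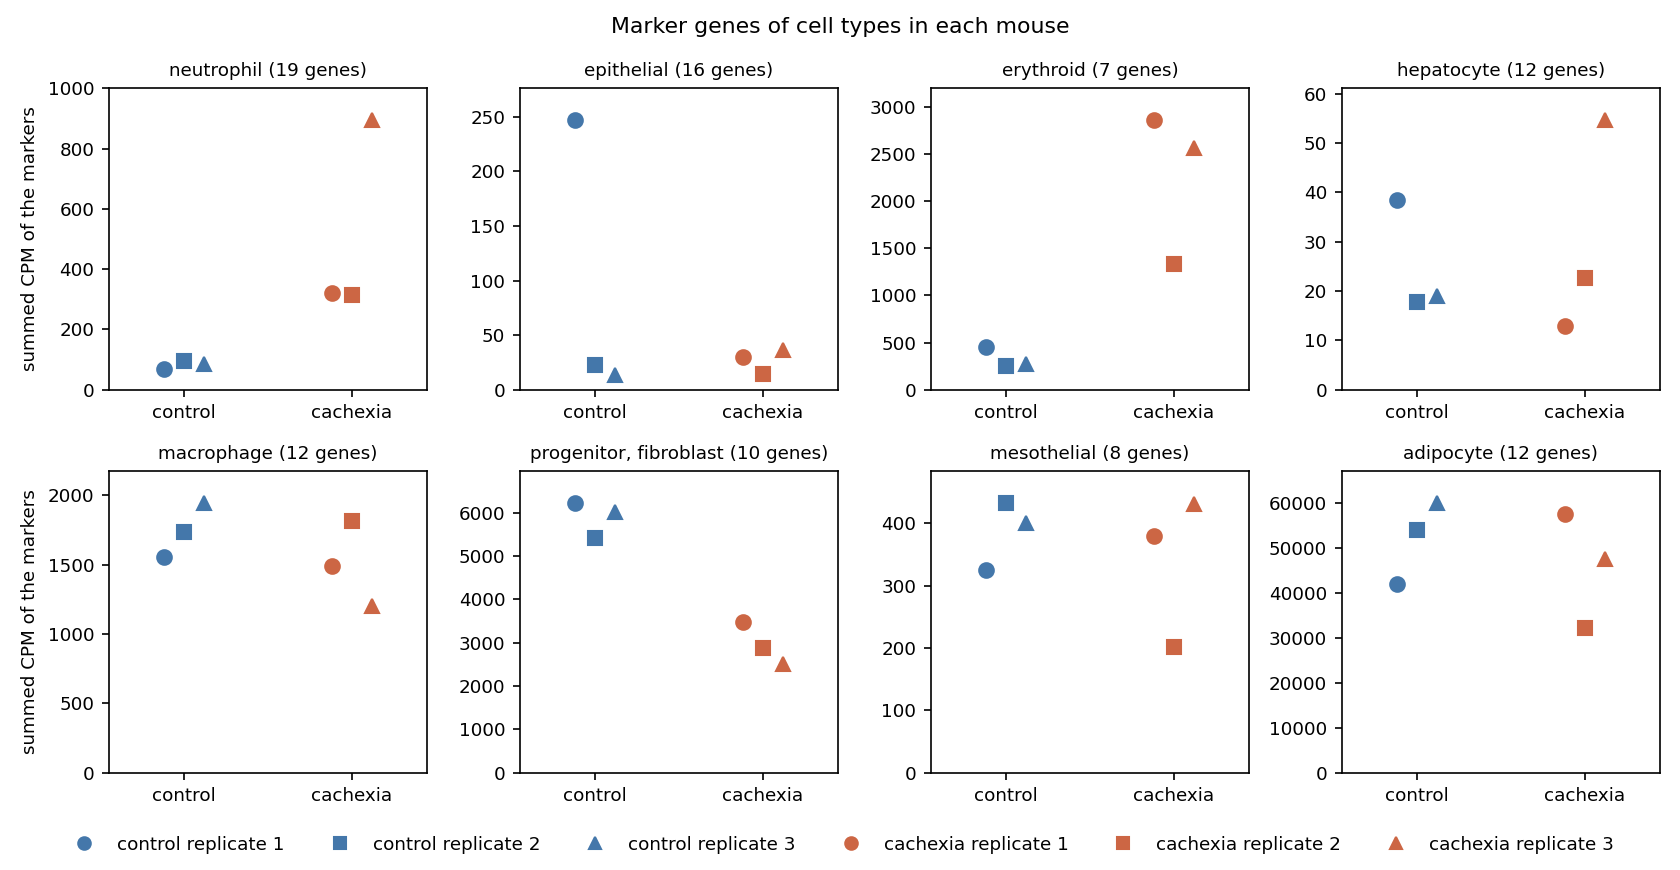
Summed CPM of marker genes of 8 cell types in each of the 3 control and 3 cachectic mice, with a point per mouse and all vertical axes starting at 0. Neutrophil and erythroid sums are higher in every cachectic mouse than in every control mouse, progenitor and fibroblast sums are lower, and the epithelial sum is 247 CPM in control replicate 1 and at most 36.3 CPM elsewhere.

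Serpina3n (chromosome 12, 104406729 to 104414329) encodes a secreted antichymotrypsin-like inhibitor. Its level was 404, 477 and 585 CPM in the control mice and 181, 1822 and 2696 CPM in the cachectic mice. Cachexia replicates 2 and 3 were above every control, and cachexia replicate 1 was below every control. The mean was 489 ± 91.2 (SD, n = 3) CPM in control and 1566 ± 1277 (SD, n = 3) CPM in cachectic mice, giving a log2 fold change of 1.68 (SE 0.76, adjusted p = 0.164, edgeR, Benjamini-Hochberg). Without cachexia replicate 1 the log2 fold change was 2.21 (SE 0.27, adjusted p = 0.00824, edgeR, Benjamini-Hochberg), and without both replicates numbered 1 it was 2.09 (SE 0.30, adjusted p = 0.0194, edgeR, Benjamini-Hochberg). Both of these fits left out the lowest cachectic mouse of Serpina3n, and the second was added after the data were seen. The SD of log2 CPM among cachectic mice was 2.11, larger than in all but 0.106% of tested genes. The gene has close relatives, and 4 of 1965 stretches of 100 bases of its transcript occur in another gene of the family, so few of its reads could be shared.

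Hp (chromosome 8, 109575128 to 109579172) was the most abundant of the 10 genes. Its mean level was 2333 ± 367 (SD, n = 3) FPKM in control mice, rank 13 among all genes, and 3105 ± 2118 (SD, n = 3) FPKM in cachectic mice, rank 5. Between 69.2% and 77.5% of the counts of the 10 genes in a mouse were Hp. The values were 3867, 3169.8 and 4347 CPM in control mice and 1447, 5482 and 8397 CPM in cachectic mice, so the cachectic mice lay on both sides of the controls. Of the 6 mice, cachexia replicate 1 was the lowest, and replicates 2 and 3 were the highest. The log2 fold change was 0.43 (SE 0.55, adjusted p = 0.621, edgeR, Benjamini-Hochberg), and -0.13 without cachexia replicate 3.

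The 3 orosomucoid genes lie beside each other on chromosome 4, and Orm2 and Orm3 were both called lower. Orm1 (63344560 to 63348163) was at 80.3, 97.8 and 129.7 CPM in control mice and 9.97, 2.46 and 40.3 CPM in cachectic mice, with no overlap. Its mean was 103 ± 25.0 (SD, n = 3) CPM in control and 17.6 ± 20.05 (SD, n = 3) CPM in cachectic mice. Its log2 fold change was -2.55 (SE 0.79, adjusted p = 0.0624, edgeR, Benjamini-Hochberg). The cachectic mice differed 16.4-fold among themselves, and without cachexia replicate 3, the highest of them, the log2 fold change was -4.03 (SE 0.57, adjusted p = 0.0108, edgeR, Benjamini-Hochberg). Orm2 (63362449 to 63365878) was far rarer, with 12, 17 and 18 counts in control and 3, 2 and 1 counts in cachectic mice. Its levels were 0.602, 0.974 and 1.02 CPM against 0.175, 0.123 and 0.0656 CPM, and the groups did not overlap. The log2 fold change of Orm2 was -2.74 (SE 0.56, adjusted p = 0.0161, edgeR, Benjamini-Hochberg), and the call was lost without control replicate 2, control replicate 3 or cachexia replicate 2 (adjusted p = 0.0622, 0.0765 and 0.0538, edgeR, Benjamini-Hochberg). Orm3, which lies between them from 63356162 to 63359511 and belonged to a second list of acute phase genes, was at 11.0, 10.2 and 10.3 CPM in control and 0.350, 0.246 and 1.11 CPM in cachectic mice (log2 fold change -4.20, SE 0.51, adjusted p = 0.00315, edgeR, Benjamini-Hochberg). All 3 genes were lower in every cachectic mouse than in any control mouse. Orm1 and Orm2 share 47 of 676 stretches of 100 bases in their transcripts (6.95%), so reads of Orm1 could be counted for Orm2. Orm1 had 1601, 1707 and 2289 counts in control and 171, 40 and 615 in cachectic mice, so that in control mice even a small share of its reads would equal the whole count of Orm2. The values and the call of Orm2 are uncertain for that reason, and the part of shared reads in them was not tested.

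The sequence before Orm2 (chr4:63362199-63362448 (+ strand), RefSeq, GRCm38.p6) is shown because Orm2 was called lower and, unlike Orm1, had a promoter in the table. A promoter of Orm3 was not looked up. Capitals mark 2 stretches with C/EBP letters, of which the one at -120 to -113 reads the same on both strands and the other lies at -108 to -101. No NF-kappaB, STAT or GRE letters were found in this window.
Orm2: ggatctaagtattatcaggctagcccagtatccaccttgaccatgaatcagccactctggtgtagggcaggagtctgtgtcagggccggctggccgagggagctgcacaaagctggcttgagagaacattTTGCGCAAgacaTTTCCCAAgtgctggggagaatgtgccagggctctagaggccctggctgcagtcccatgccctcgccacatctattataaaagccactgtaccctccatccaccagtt

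Lbp (chromosome 2, 158306493 to 158332852) encodes the plasma protein that passes bacterial lipopolysaccharide to the receptor Cd14. The level was 241, 154 and 179.9 CPM in the control mice and 54.7, 113 and 80.3 CPM in the cachectic mice. Every cachectic mouse was below every control mouse. The control mean of 192 ± 44.8 (SD, n = 3) CPM fell to 82.7 ± 29.2 (SD, n = 3), for a log2 fold change of -1.21 (SE 0.28, adjusted p = 0.0250, edgeR, Benjamini-Hochberg). The sign held with any mouse left out, between -1.50 and -0.99, but the adjusted p-value rose to 0.0583 and 0.0745 without control replicates 1 and 3, and to 0.0537 and 0.0675 without cachexia replicates 1 and 3 (edgeR, Benjamini-Hochberg).

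Cp (chromosome 3, 19957054 to 20009145) encodes a protein that oxidizes iron as it leaves cells. Of the 8 tested genes it varied least between control mice, with 357, 367 and 351 CPM in control and 253, 266 and 325 CPM in cachectic mice. The groups did not overlap, but the difference was small, 358 ± 8.28 (SD, n = 3) against 281 ± 38.4 (SD, n = 3) CPM, giving a log2 fold change of -0.35 (SE 0.15, adjusted p = 0.152, edgeR, Benjamini-Hochberg). Cp is the one gene of the 10 that overlaps another gene, Hps3 on the other strand, and the sources used here do not say whether strand was used in counting. Hps3 had 3812 counts over all 6 mice.

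**Figure D3:**
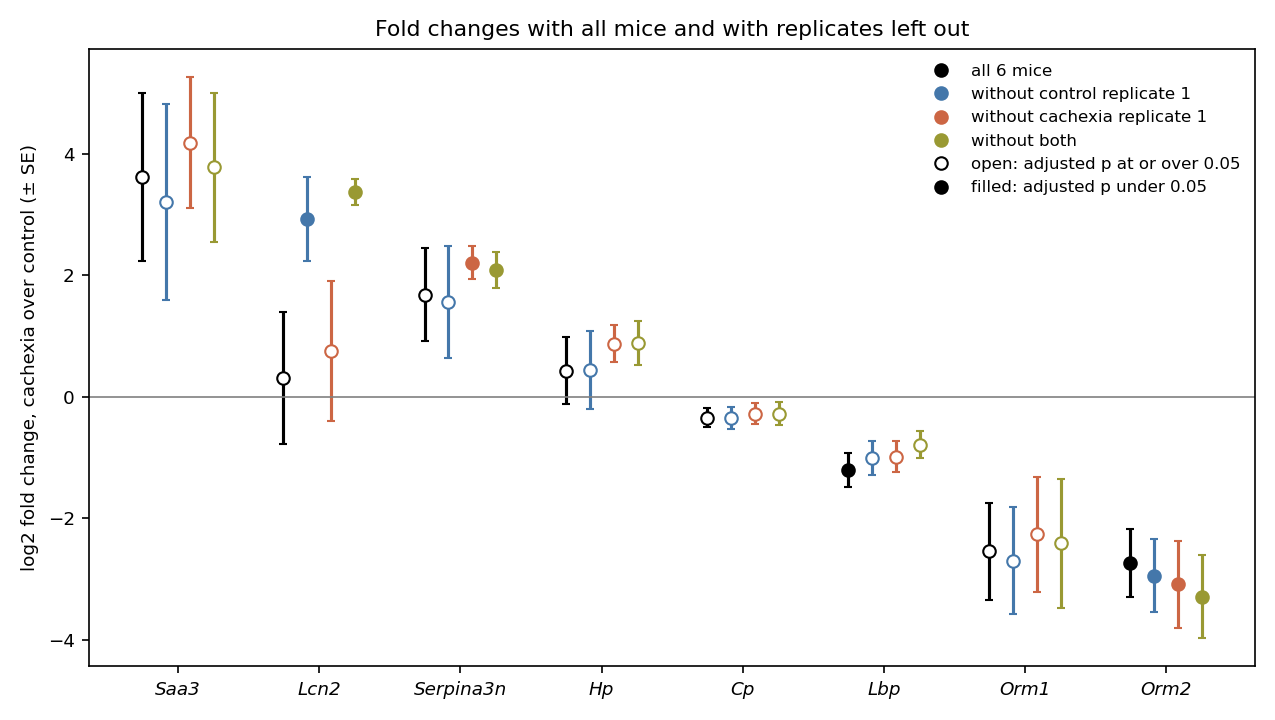
Log2 fold change of cachectic over control mice for the 8 tested genes, with bars of 1 standard error, from edgeR's test with all 6 mice, without control replicate 1, without cachexia replicate 1 and without both. Filled points have an adjusted p-value under 0.05. Lcn2 moves from 0.30 to 2.92 without control replicate 1, and in these fits all 8 genes keep the sign they have with all mice.

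Cachexia replicate 1 was the lowest cachectic mouse in 6 of the 8 tested genes, against 28.7% of all tested genes. It was also below every control mouse in 6 of the 8 (Hp, Orm1, Orm2, Serpina3n, Lbp and Cp), against 34.6% of all tested genes. In Orm1, Orm2, Lbp and Cp the other cachectic mice were below every control too, so only in Hp and Serpina3n was replicate 1 the sole cachectic mouse below them. The 10 genes together made up 0.195% of all counts in that mouse, 0.822% and 1.19% in cachexia replicates 2 and 3, and between 0.404% and 0.542% in the control mice. Its neutrophil sum was within the range of the cachectic group, and its summed erythroid markers, 2859 CPM, were the highest of the 6 mice. Without cachexia replicate 1, Hp had a log2 fold change of 0.87 and was still not called.

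A second list held other positive acute phase genes. Of 38 such genes, 26 were tested, 1 was higher and 3 were lower (edgeR, adjusted p under 0.05), where 9.0% of all tested genes were higher and 8.63% lower, and their median log2 fold change was 0.19. The number higher was 4 without control replicate 1, 6 without cachexia replicate 1, 6 without both and 0 without control replicate 3, and the number lower was 2 whichever control mouse was left out, and 2 without cachexia replicate 1. C4b, a complement component, had 985 ± 119 (SD, n = 3) CPM in control and 1915 ± 294 (SD, n = 3) CPM in cachectic mice (log2 fold change 0.96, SE 0.21, adjusted p = 0.0200, edgeR, Benjamini-Hochberg). Besides Orm3, the lower genes were Serpina1a, an alpha-1-antitrypsin, at 4.01, 8.88 and 7.54 CPM against 0.642, 0.368 and 0.918 CPM (log2 fold change -3.40), and Ptx3, a long pentraxin (log2 fold change -2.10). C3, the central complement component, led the list by CPM, at 1944 ± 324 (SD, n = 3) CPM in control and 2859 ± 1242 (SD, n = 3) CPM in cachectic mice, and was not called (adjusted p = 0.300, edgeR, Benjamini-Hochberg). A2m was at 0 in all mice. Of 10 negative acute phase genes, whose plasma proteins decline in inflammation, 5 were tested and 1 was called, Apoa1, an apolipoprotein of high-density lipoprotein. Apoa1 was higher in cachexia, at 0.652, 0.172 and 0.0567 CPM in control and 2.45, 3.01 and 7.67 CPM in cachectic mice (log2 fold change 3.83, SE 0.80, adjusted p = 0.0180, edgeR, Benjamini-Hochberg). No gene of that list was called without control replicate 2 or 3, and 2 were higher without cachexia replicate 1 and 3 without both replicates numbered 1. Hepatocyte markers summed to 38.4, 17.7 and 18.9 CPM in control and 13.0, 22.7 and 54.6 CPM in cachectic mice, with Alb leading the list. In control replicate 1 most of the sum was Hnf4a, a transcription factor of liver and some other epithelia, at 26.8 CPM there, 0 in the other controls and at most 0.328 CPM in the cachectic mice. Alb was at 4.57 CPM in that mouse.

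Upstream of these genes, the receptor chains of interleukin-6 were higher in cachexia. Of 18 genes of inducing cytokines and their receptors, 13 were tested, 2 were higher and 1 was lower, and the median log2 fold change was 0.61. These counts are 15.4% higher and 7.69% lower, against 9.0% and 8.63% of all tested genes, so as a list they are not far from those shares. The number higher was 0 without control replicate 3, 1 without both replicates numbered 1, 4 with library totals and 6 with DESeq2. Il6ra, the interleukin-6 receptor, was at 34.1, 52.4 and 46.7 CPM in control and 76.2, 92.2 and 142 CPM in cachectic mice (log2 fold change 1.22, SE 0.26, adjusted p = 0.0188, edgeR, Benjamini-Hochberg). Il6st, the shared signaling chain gp130, was at 423 ± 26.8 (SD, n = 3) and 698 ± 54.3 (SD, n = 3) CPM (log2 fold change 0.72, SE 0.16, adjusted p = 0.0201, edgeR, Benjamini-Hochberg). In both genes all cachectic mice were above all control mice, cachexia replicate 1 included. Lif, a cytokine of the same family, was lower, at 4.92, 5.39 and 5.95 CPM against 1.40, 0.676 and 0.393 CPM (log2 fold change -2.70, adjusted p = 0.00947, edgeR, Benjamini-Hochberg). Il6 itself, given because it is the main inducer, was at 0.151, 1.09 and 0.0567 CPM in control and 1.17, 3.56 and 5.11 CPM in cachectic mice (log2 fold change 2.92, SE 0.94, adjusted p = 0.0692, edgeR, Benjamini-Hochberg). Il22 was at 0 in all mice.

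Among 16 transcription factors and feedback genes downstream of these receptors, 14 were tested and 5 were called higher (edgeR, adjusted p under 0.05), or 3 without control replicate 3. With all mice 9.0% of all tested genes were higher and 8.63% lower. Of the 14, 0 were called lower with all mice by edgeR, DESeq2 or limma-voom (1 by edgeR without cachexia replicate 1), and 0 were lower at an unadjusted p under 0.05. The median log2 fold change was 0.27. Cebpd, a C/EBP factor induced by interleukin-6, was at 52.0, 55.7 and 47.3 CPM in control and 137, 175 and 366 CPM in cachectic mice (log2 fold change 2.13, SE 0.35, adjusted p = 0.00807, edgeR, Benjamini-Hochberg). Nfkbia, the NF-kappaB inhibitor and feedback target, was at 66.9 ± 2.94 (SD, n = 3) and 215 ± 49.9 (SD, n = 3) CPM (log2 fold change 1.68, adjusted p = 0.00265, edgeR, Benjamini-Hochberg). Nfkbiz, an atypical NF-kappaB regulator, and Socs3, the feedback inhibitor of Stat3 signaling, had log2 fold changes of 1.26 and 1.10. The fifth, Stat3, named after its value was seen, had a log2 fold change of 1.06 (SE 0.22, adjusted p = 0.0162, edgeR, Benjamini-Hochberg). In each of these 5 genes, which the test had picked as higher, cachexia replicate 1 was above every control mouse. In Nfkb2, which was not called, it was below them, at 28.2 CPM against 31.1 CPM or more. Cebpa, which led the list by CPM, was at 872, 1040.4 and 864 CPM in control and 823, 439 and 177 CPM in cachectic mice (log2 fold change -0.95, SE 0.47, adjusted p = 0.198, edgeR, Benjamini-Hochberg).

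**Figure D4:**
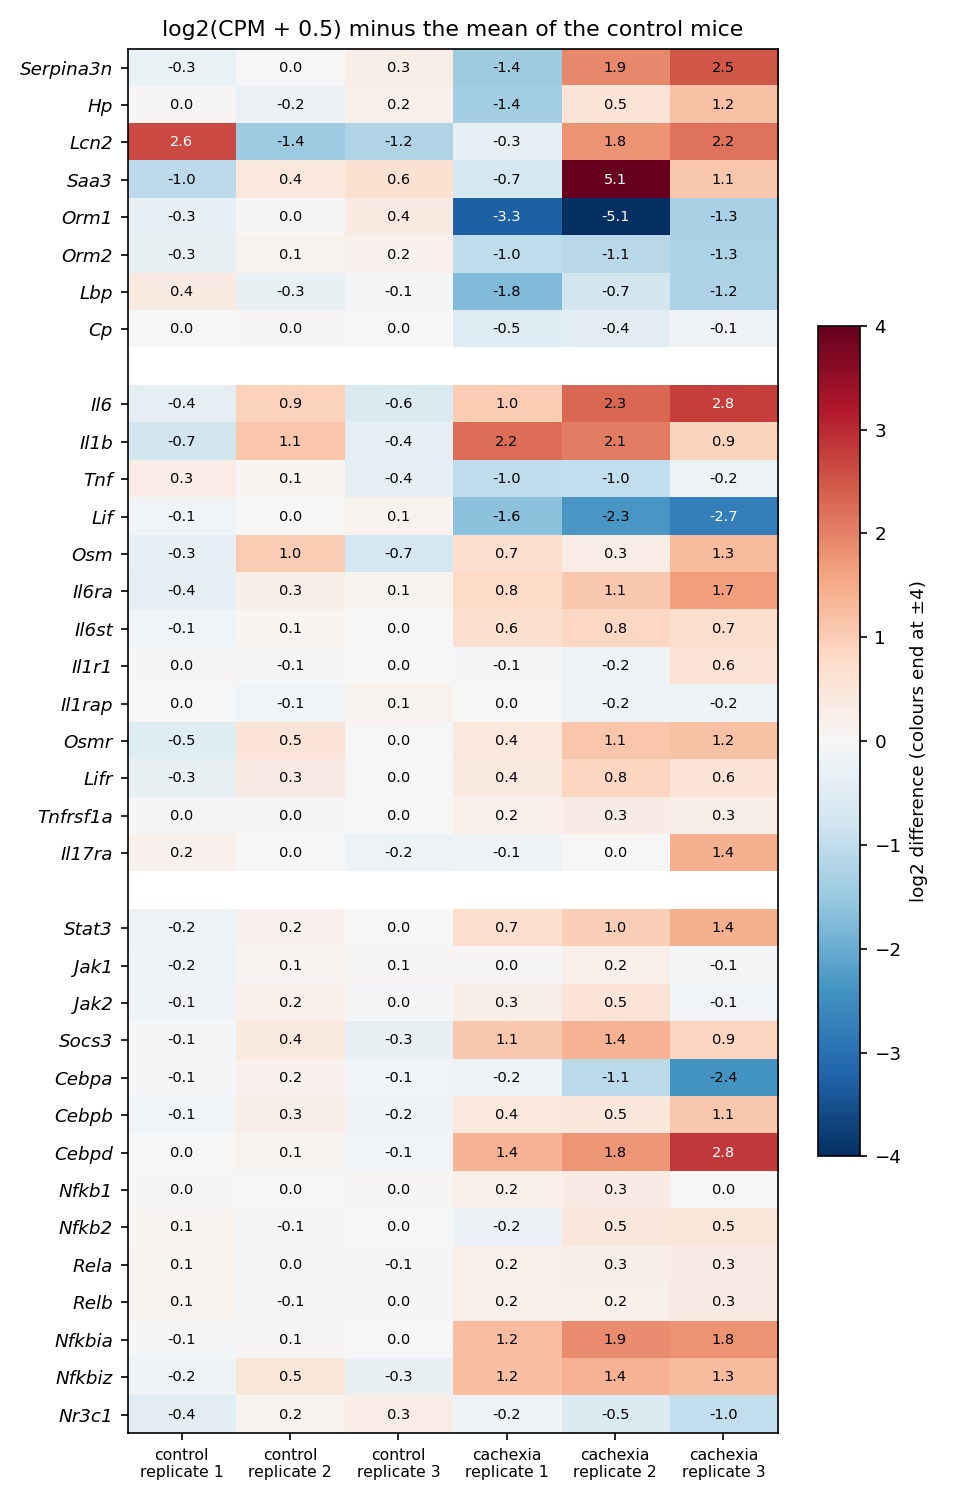
Difference of log2(CPM + 0.5) from the mean of the control mice, for the 8 tested acute phase genes (top), 13 tested genes of inducing cytokines and receptors (middle) and 14 tested transcription factors and feedback genes (bottom), in a column for each mouse, with colors ending at 4 in either direction. Cebpd, Nfkbia, Nfkbiz, Socs3, Stat3, Il6ra and Il6st are above the control mean in all 3 cachectic mice, while Serpina3n and Hp are below it in cachexia replicate 1 and above it in the other cachectic mice.

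Receptors and partners of the secreted proteins were tested as a further list, and 4 of 14 genes were higher and 1 lower, with a median log2 fold change of 0.59. These counts are 28.6% higher and 7.14% lower, against 9.0% and 8.63% of all tested genes. The number higher fell to 2, 1 and 0 without control replicates 1, 2 and 3 and to 1 without both replicates numbered 1, and the number lower was 0 without control replicate 2 or 3. Fpr2, a receptor for serum amyloid A on neutrophils and other cells, was at 0, 0.229 and 0.170 CPM in control and 1.40, 4.42 and 6.36 CPM in cachectic mice (log2 fold change 4.90, SE 0.89, adjusted p = 0.0112, edgeR, Benjamini-Hochberg). Scarb1, a lipoprotein receptor that also takes up serum amyloid A, was at 212 ± 4.91 (SD, n = 3) and 555 ± 226 (SD, n = 3) CPM (log2 fold change 1.39, adjusted p = 0.0147, edgeR, Benjamini-Hochberg). Cd163, the macrophage receptor for haptoglobin bound to hemoglobin, and Cd14, the partner of Lbp, were higher with log2 fold changes of 0.93 and 1.09. Of the macrophage markers 0 of 12 were called higher by edgeR, DESeq2 or limma-voom (0 at an unadjusted p under 0.05, and 1 by edgeR without cachexia replicate 3). Mrc1 and Itgax were called lower by edgeR, with 0 lower without control replicate 2, control replicate 3 or cachexia replicate 3 and 1 without any other mouse. The macrophage sums were 1554, 1733 and 1942 CPM in control and 1489, 1818 and 1203 CPM in cachectic mice. Heph, a membrane ferroxidase related to Cp, was lower, at 160.0 ± 34.4 (SD, n = 3) against 75.7 ± 14.2 (SD, n = 3) CPM (log2 fold change -1.08, adjusted p = 0.0137, edgeR, Benjamini-Hochberg). Of the receptors of Lcn2, Slc22a17 was at 36.5, 23.0 and 22.9 CPM in control and 22.2, 17.7 and 13.0 CPM in cachectic mice and was not called. Lrp2, a large endocytic receptor of epithelia, was at 122 CPM in control replicate 1 and between 7.93 and 12.2 CPM in the other 5 mice, and thus high in the same mouse as Lcn2.

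Genes with the pattern most like Lcn2, Saa3 or Serpina3n were listed by the root mean square difference of log2 CPM over the 6 mice, each gene centered on its control mean. Nearest to Lcn2 were Slc44a4 (0.740), Hdc (0.741), Ttr (0.795), Gm867 (0.825) and Ccno (0.845). Hdc, the enzyme that makes histamine, was at 25.1, 2.52 and 3.57 CPM in control and 9.91, 11.3 and 17.5 CPM in cachectic mice. Like Lcn2, it was highest in control replicate 1, and every cachectic mouse was above the other controls. Nearest to Saa3 was Cxcl13, a chemokine that attracts B cells, at 2.41, 9.46 and 2.72 CPM in control and 5.72, 329.7 and 10.7 CPM in cachectic mice (difference 0.864), followed by Fgl1, Doc2b, Itih4 and Aspg. Cxcl13 was thus also far higher in cachexia replicate 2 than in any other mouse. Nearest to Serpina3n were Jaml (0.596), Serpina3m (0.632), Aspg (0.635), Serpina3i (0.671) and Mt1 (0.686). Serpina3m, a neighbor of the same family, was at 11.7, 11.9 and 14.2 CPM in control and 1.69, 83.3 and 114 CPM in cachectic mice, lowest in cachexia replicate 1 as Serpina3n was. Mt1, a metallothionein induced in the acute phase, was at 356, 279.9 and 253 CPM in control and 171, 451 and 2244 CPM in cachectic mice.

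Per gene length, the genes ranked Hp, Serpina3n, Orm1, Lbp, Cp, Lcn2, Saa3, Orm2, Saa1 and Saa2 by their means in control mice. The deposited gene lengths are 2623 bases for Lcn2, 9566 for Cp and 775 for Orm1. Their longest coding transcripts have 915, 4564 and 775 bases. The order and overlap of genes close in level, in either group, therefore depend on the length used. The control ranges of Saa3 and Orm2 overlapped, and Saa1 and Saa2 had few counts, so the order within these pairs is not certain. Serpina3n was at 234 ± 43.5 (SD, n = 3) FPKM, rank 130 of all genes, and Orm1 at 131 ± 31.9 (SD, n = 3) FPKM, rank 274. Lbp (39.2 ± 9.25 FPKM) and Cp (37.0 ± 0.793 FPKM) did not differ beyond the spread of the controls, and Lcn2 (20.8 ± 30.2 FPKM) could not be placed below them because of control replicate 1. In cachectic mice the same scale gave Serpina3n 741 ± 603 (SD, n = 3) FPKM, rank 36, and Orm1 22.2 ± 25.2 (SD, n = 3) FPKM, rank 2235. Means of the next genes were 28.7 FPKM for Cp, 25.4 for Lcn2, 22.2 for Orm1, 19.9 for Saa3 and 16.7 for Lbp. Every cachectic mouse had more Cp (at least 25.9 FPKM) than any had Lbp (at most 22.8 FPKM), while the ranges of Lcn2, Orm1 and Saa3 each overlapped both.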

How the data were processed

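RNA-seq of eWAT from 3 control and 3 cachectic mice was analyzed. The authors filtered and aligned the reads, counted them per gene and deposited raw counts; the authors also deposited FPKM values, computed from counts and gene length. The submitters' processing notes name featureCounts 1.5.0-p3, DESeq2 1.16.1 and the build mm9, but the coordinates are those of GRCm38 (GENCODE M21) for 98.3% of the genes found there. A strand setting is not given in the sources used here. The authors' table of log2 fold changes and p-values was not used, nor were its 6 per-sample and 2 group mean columns.

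Counts were normalized by TMM and tested in R 4.3.3 with edgeR 4.0.16 (filterByExpr, then the quasi-likelihood test with no covariate), and p-values were adjusted by Benjamini-Hochberg over all 16003 tested genes, with a threshold of 0.05. The SE is the fold change divided by the square root of F. Scripts were tested on simulated data. The total count, 14928766 to 18855546 per mouse, and the biological coefficient of variation, 0.264, set the precision. With 3 mice against 3, a two-sided exact permutation test cannot go below 0.1. No libraries were near-identical. Heat map and likeness values use log2 CPM with a pseudocount of 0.5.

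The members and gene lists were chosen with earlier results of these data known. Named are all members and, per list and direction, up to 4 called genes of smallest p-value, or the genes of highest mean CPM, and, for Lcn2, Saa3 and Serpina3n, the 5 protein-coding genes of most similar pattern. Other genes, such as Pax2, Epcam, Ly6g, Il6, Cebpa, Nfkb2, Hnf4a, C3, Lrp2, Slc22a17 and A2m, were named after their values were seen. Other settings were RLE factors, library totals, no filter, at least 10 counts in every sample, each mouse left out, the replicate number as a block, limma-voom (limma 3.58.1), DESeq2 1.42.0, limma on log2(FPKM + 1) and log2(FPKM + 0.1), a robust fit, a minimum absolute log2 fold change of 1 and, added after seeing the data, both replicates numbered 1 left out.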

Additional observations from a re-analysis of the deposited data

How the results depend on the processing

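Among the 10 genes, the number called higher was 0 with all mice, 1 without the filter on low counts (Saa2, adjusted p = 0.0394, edgeR, Benjamini-Hochberg), 2 without both replicates numbered 1, and between 0 and 2 with 1 mouse left out. The number called lower was 2, and it was 1 with at least 10 counts in every sample (Orm2 was then not tested), 1 with both replicates numbered 1 left out, and between 0 and 2 with 1 mouse left out, with 0 without control replicate 3. Over all genes, leaving out 1 mouse gave 382 to 1197 higher and 446 to 1142 lower genes, the fewest without control replicate 3 and also few without control replicate 2 (600 and 712), and leaving out both replicates numbered 1 gave 850 and 854. The cause of these shifts was not tested.

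With 1 mouse left out, the log2 fold change of Hp ranged from -0.13 (without cachexia replicate 3) to 0.87, and that of Lcn2 from -0.21 (without control replicate 2) to 2.92, with -0.19 without control replicate 3 and -0.15 without cachexia replicate 3. In the same fits Saa3 ranged from 0.32 to 4.18, Serpina3n from 1.04 to 2.21, Orm1 from -4.03 to -2.03, Orm2 from -3.09 to -2.47, Lbp from -1.50 to -0.99 and Cp from -0.46 to -0.28. Without the filter, Orm1 passed the threshold (adjusted p = 0.0209, edgeR, Benjamini-Hochberg), as it did with limma-voom (adjusted p = 0.0208, Benjamini-Hochberg) and with limma on log2(FPKM + 1) (adjusted p = 0.0445, Benjamini-Hochberg). Over all settings the highest value was 0.88 for Hp, 3.37 for Lcn2 and -0.79 for Lbp, the lowest for Serpina3n was 0.98, and Orm2 lay between -3.29 and -0.86, the latter with limma on log2(FPKM + 1). Saa3, Hp and Cp passed under none of the 17 settings.

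Same-numbered mice did not deviate together (correlations -0.0031, -0.0113 and 0.0085), and no mouse correlated best with its own number, so no pairing by number was seen. With so few mice these correlations cannot show that none existed. With the replicate block, 913 genes were higher and 968 lower, and 0 of the 8 acute phase genes were higher and 1 was lower, Orm1 (adjusted p = 0.0338, edgeR, Benjamini-Hochberg), with Orm2 at 0.0508 and Lbp at 0.0591. Depth limits Saa1, Saa2 and Orm2, whose counts were 18 or fewer in at least 5 mice.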

Other observations

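Red cell genes, which matter here because haptoglobin binds hemoglobin, were higher in cachectic fat. Of 7 erythroid markers 6 were tested and all 6 were higher (edgeR, adjusted p under 0.05), with sums of 452, 254 and 277 CPM in control and 2859, 1335 and 2566 CPM in cachectic mice. Hbb-bs, a beta-globin, had a log2 fold change of 2.95 (SE 0.38, adjusted p = 0.00356, edgeR, Benjamini-Hochberg). Alas2, the erythroid enzyme of heme synthesis, was at 11.7, 9.69 and 9.29 CPM in control and 81.2, 34.0 and 58.6 CPM in cachectic mice.

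Progenitor and fibroblast markers summed to less in every cachectic mouse, and 5 of 10 were lower and 1 higher. Of all tested genes 8.63% were lower and 9.0% higher. The number of progenitor and fibroblast markers lower was 3 whichever control mouse was left out, and 3 without cachexia replicate 2, and the number higher was 0 without control replicate 3. Col3a1, a fibrillar collagen, was at 2651, 2118 and 2655 CPM in control and 398, 174 and 244 CPM in cachectic mice (log2 fold change -3.18, adjusted p = 0.00212, edgeR, Benjamini-Hochberg). Ly6a, a surface marker of progenitors, was higher (log2 fold change 0.97). Of 12 adipocyte markers 2 were higher, the lipase gene Pnpla2 (log2 fold change 1.08) and the lipid droplet gene Cidec (0.87), and the hormone gene Lep was lower (-3.14). These counts are 16.7% higher and 8.33% lower, beside the same shares of all tested genes. The number of adipocyte markers higher was 1 without control replicate 1, cachexia replicate 2 or cachexia replicate 3. None was called higher without control replicate 2, control replicate 3 or cachexia replicate 1, or with the replicate block, and 0 were called lower whichever control mouse was left out. Of 5 tested hepatocyte markers Cps1 was higher, at 0, 0 and 0.0567 CPM in control and 1.05, 0.798 and 1.51 CPM in cachectic mice, and Serpina1a was lower. The number of hepatocyte markers higher was 2 without control replicate 1 or 2, 3 without cachexia replicate 1 and 5 without both replicates numbered 1. Of 8 mesothelial markers 0 were called by edgeR (1 at an unadjusted p under 0.05), with 1 higher without cachexia replicate 2 and 1 lower without cachexia replicate 3. Their sums were 326, 432 and 399.9 CPM in control and 379.6, 201 and 431 CPM in cachectic mice.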
